A study of Mus musculus with 7 samples.

Results

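The 35 genes described here were listed by their symbols as hypoxia and glycolysis genes. All 35 were found among the 33696 genes counted in nuclei of cultured BB-p53n OPCs. They were split into 2 secreted peptides, *Adm* and *Apln*, and 33 general genes, from the glucose transporters and glycolytic enzymes to HIF subunits and other HIF targets. The question was whether nuclei that differ in the growth factor receptors *Egfr* and *Pdgfra* also differ in these genes, and whether the peptides stand apart from the general genes. BB-p53n OPCs are primary mouse oligodendrocyte progenitors of *Trp53* fl/fl C57BL/6 pups of either sex, isolated in the first postnatal week by an antibody to PDGFRα and infected with a PDGFB-IRES-CRE retrovirus, so that all groups share the deletion of *Trp53* and the overexpression of PDGFB. OPCs without the retrovirus or the deletion were not analysed here, pups of both sexes were pooled in 1 culture, and the deletion depends on the virus entering each cell. Nuclear RNA was measured by snRNA-seq in 1 library, which held 154375410 UMIs in 10047 barcodes.

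The 8917 nuclei with 2000 to 8000 detected genes were used. The *Egfr* group was the 1125 nuclei with at least 2 *Egfr* UMIs and 0 *Pdgfra* UMIs, and the *Pdgfra* group was the 4701 nuclei with at least 2 *Pdgfra* UMIs and 0 *Egfr* UMIs. Both groups come from the same library, so there is no replicate, no test was run between them, and all intervals are 95% exact intervals that cover counting error only. Levels are CPM, the UMIs of a gene scaled to the total UMIs of the group, which are not scaled to transcript length and are compared only within a gene. The label OPC was checked against markers: *Olig2* had 217.9 CPM in the *Egfr* group and 312.0 in the *Pdgfra* group, but *Sox10*, which defines the oligodendrocyte lineage, had 6.75 and 112.4, and *Lhfpl3* had 293.5 and 2353.9. The *Egfr* group is therefore called by its rule.

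Cells that lack oxygen stop degrading the HIF alpha subunits encoded by *Hif1a* and *Epas1*, because the prolyl hydroxylases of the Egln family need oxygen to mark them for destruction. HIF then binds DNA at a short core and raises genes for glucose uptake, glycolysis, lactate production and blood vessel growth. Among its targets are also *Adm*, which encodes the vasodilator adrenomedullin, and *Apln*, which encodes apelin, a ligand that guides sprouting vessels. In gliomas these genes are best known from cells around necrotic tissue, while many of the glycolytic genes are active in any dividing cell.

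The HIF core was looked up in the promoters, since the peptides and a general gene such as *Ldha* share HIF as a known regulator. RefSeq windows on GRCm38.p6, from 250 bases before to 50 bases after a start, were found for 31 of the 35 genes, and *Slc2a3*, *Ndrg1*, *Epas1* and *Bnip3l* were not matched. The letters ACGTG or GCGTG, on either strand and with overlapping matches joined, were in a window of 27 of these 31 genes (87.1%), beside 46.7% of all 27025 genes with a window. By window, the shares were 77.3% of 44 and 43.8% of 32851. The windows of *Apln*, *Gpi1*, *Tpi1* and *Eno2* did not hold them. The 250 bases before the start are shown for both peptides and for 2 glycolytic genes that differed in opposite directions, with matches in capitals, at chr7:110627407-110627656 (plus strand) for *Adm*, chrX:48034854-48035103 (minus) for *Apln*, chr7:46845554-46845803 (plus) for *Ldha*, where this is the window with the lower coordinates of 2, and chrX:106186850-106187099 (plus) for *Pgk1*:
Adm: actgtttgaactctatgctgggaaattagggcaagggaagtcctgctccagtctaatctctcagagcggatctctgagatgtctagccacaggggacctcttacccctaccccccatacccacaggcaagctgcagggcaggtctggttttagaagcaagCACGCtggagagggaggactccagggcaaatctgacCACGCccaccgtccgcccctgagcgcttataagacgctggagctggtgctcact
Apln: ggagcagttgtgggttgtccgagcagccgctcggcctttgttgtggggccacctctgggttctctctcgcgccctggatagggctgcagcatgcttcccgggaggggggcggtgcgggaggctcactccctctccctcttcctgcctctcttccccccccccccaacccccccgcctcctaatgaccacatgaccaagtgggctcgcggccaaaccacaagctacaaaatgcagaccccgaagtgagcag
Ldha: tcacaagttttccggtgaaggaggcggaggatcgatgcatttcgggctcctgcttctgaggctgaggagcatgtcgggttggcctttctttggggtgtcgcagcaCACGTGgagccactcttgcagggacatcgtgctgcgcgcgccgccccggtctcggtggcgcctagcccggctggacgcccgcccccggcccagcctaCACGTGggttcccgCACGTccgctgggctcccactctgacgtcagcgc
Pgk1: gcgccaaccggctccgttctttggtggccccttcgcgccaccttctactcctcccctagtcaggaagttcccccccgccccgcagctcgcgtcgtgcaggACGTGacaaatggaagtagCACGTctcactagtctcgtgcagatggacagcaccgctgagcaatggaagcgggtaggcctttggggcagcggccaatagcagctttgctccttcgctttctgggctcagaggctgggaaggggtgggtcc
These bases held 2 matches for *Adm*, 0 for *Apln*, 3 for *Ldha* and 2 for *Pgk1*. A match is a run of letters and not a measured binding site, and a window without one says nothing about binding elsewhere.

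*Adm* was at 50.1 CPM in the *Egfr* group (46.5 to 53.9, 720 UMIs) and at 0.730 in the *Pdgfra* group (0.557 to 0.940, 60 UMIs). The level in the *Egfr* group was 68.6 times higher (52.7 to 90.9). *Apln* was at 221.6 CPM (214.0 to 229.5, 3184 UMIs) and 4.63 CPM (4.17 to 5.12, 380 UMIs), a ratio of 47.9 (43.1 to 53.4). Of the 10858 genes with a mean of at least 5 CPM over both groups, with *Egfr* and *Pdgfra* left out, 9.34% were at least 2-fold higher in the *Egfr* group and 7.52% at least 2-fold lower, with a median log2 ratio of 0.17. By ratio, *Adm* ranked 9 and *Apln* 18 among them, although both passed the minimum only through their level in the *Egfr* group. On mm39, the build of the counts, *Adm* lies on chromosome 7 from 110226858 to 110229027 and *Apln* on chromosome X from 47114019 to 47123775. The median log2 ratio of the other genes on these chromosomes was 0.34 and -0.02.

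Shares of nuclei with a peptide UMI were compared at equal depth, where a nucleus with 0 UMIs may still hold the transcript. After thinning each nucleus to 5000 UMIs, *Adm* had a UMI in 21.2% of 1114 nuclei (18.8 to 23.7) of the *Egfr* group and in 0.214% of 4670 (0.103 to 0.393) of the *Pdgfra* group. The shares before thinning were 39.7% and 0.872%, at median depths of 11819 and 15621 UMIs. For *Apln* they were 52.2% (49.3 to 55.2) and 1.99% (1.61 to 2.43) after thinning, and 69.8% and 5.13% before it. At least 1 of the 2 peptides was counted in 60.9% of the thinned nuclei of the *Egfr* group and in 2.14% of those of the *Pdgfra* group. Within the *Egfr* group, *Apln* was counted in 59.3% (52.8 to 65.7) of the 236 thinned nuclei with *Adm*. It was counted in 50.3% (47.0 to 53.7) of the 878 without *Adm*, so that the intervals of these shares met. The intervals of the *Apln* level did not meet. It was at 207.7 CPM (194.5 to 221.7) with 0 *Adm* UMIs and at 279.8 (250 to 312.3) in the 228 nuclei with 1 to 2. The 8 nuclei with 3 or more *Adm* UMIs held only 10 *Apln* UMIs. These values were not taken within the classes of sex-linked UMIs given below, which differed in both peptides. In the *Pdgfra* group only 10 thinned nuclei had *Adm*.

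**Figure D1:**
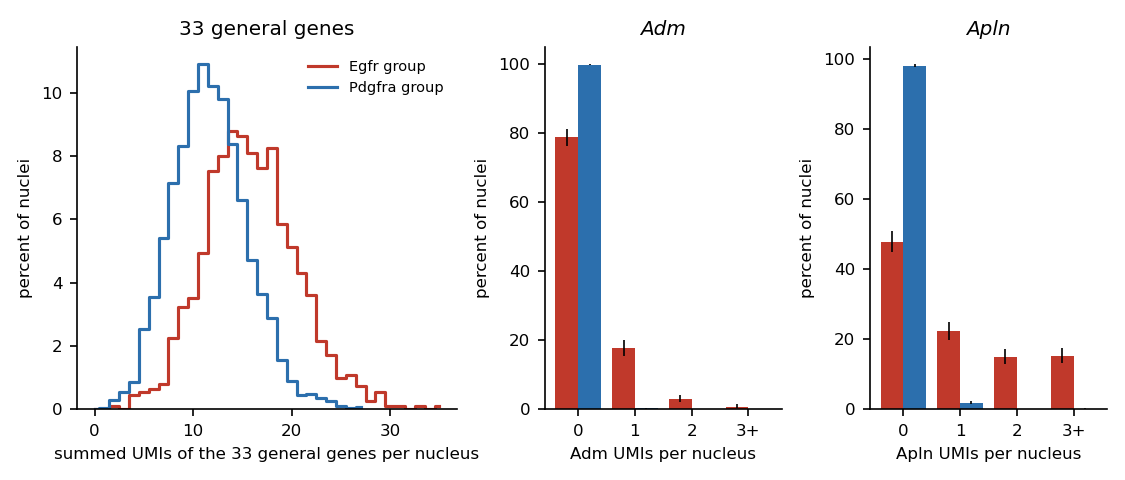
UMIs per nucleus after thinning to 5000 UMIs, in percent of the nuclei of the *Egfr* group (red, 1114 nuclei) and the *Pdgfra* group (blue, 4670 nuclei). The left panel sums the 33 general genes, whose distributions overlap widely with medians of 16 and 12 UMIs. The other panels show *Adm* and *Apln* with 95% exact binomial intervals, and at 3 or more UMIs *Apln* had 15.3% and 0.150% of the nuclei.

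The few peptide UMIs of the *Pdgfra* group lay in few nuclei. Of its 60 *Adm* UMIs, 37 were in the 149 nuclei with *Xist* and no Y-linked UMI, 3.17% of the group. The 1348 nuclei with over 20000 UMIs, 28.7% of the group, held 45. Of the group's 380 *Apln* UMIs, these sets of nuclei held 124 and 199. Scrublet scores, which rise in barcodes that resemble mixtures of nuclei, were in the highest 8% for 298 nuclei of the *Pdgfra* group, which held 41 of its *Adm* UMIs and 172 of its *Apln* UMIs. Without the 8% highest scores in both groups, the ratio was 199 for *Adm* and 80.3 for *Apln*. The part of mixed barcodes in the level of the *Pdgfra* group was not tested.

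*Xist*, the RNA of the inactive X chromosome in female cells, moved with the receptors. It was the only sex-linked marker, beside the Y-linked genes *Uty*, *Ddx3y*, *Kdm5d* and *Eif2s3y*, in 78.4% of the nuclei of the *Egfr* group and in 3.17% of the *Pdgfra* group. Y-linked UMIs alone were in 10.8% and 23.9%, neither kind in 5.87% and 72.2%, and both kinds in 4.89% and 0.787%. The levels were therefore taken again within these classes, with both kinds given for the *Egfr* group only.

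Within the *Egfr* group, the peptides were high in nuclei with *Xist* only and low in nuclei with Y-linked UMIs only. *Egfr* was at 339.8 CPM in the former and 345.8 in the latter. *Adm* was at 57.7 CPM (53.3 to 62.3) in the 882 nuclei with *Xist* only and had 1 UMI, 0.730 CPM (0.0185 to 4.06), in the 122 nuclei with Y-linked UMIs only. The ratio of the former to the latter was 79.0 (14.1 to 3126). *Apln* was at 253.6 CPM (244.4 to 263.1) and 15.3 CPM (9.48 to 23.4), a ratio of 16.6 (10.8 to 26.8). The 55 nuclei of the group with both *Xist* and Y-linked UMIs were also high. They had *Adm* at 50.2 CPM (36.9 to 66.8) and *Apln* at 213.8 (185.2 to 245.5). After thinning, *Apln* was counted in 59.8% of 875 nuclei with *Xist* only and in 6.67% of 120 with Y-linked UMIs only. For *Adm* these shares were 24.3% and 0.833%. The values of *Apln* with and without *Adm* given above mix these classes, and whether the peptides go together within a class was not tested.

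Nuclei with neither receptor held the same split. In the 255 nuclei with *Xist* only and 0 UMIs of both *Egfr* and *Pdgfra*, *Adm* was at 57.5 CPM (48.8 to 67.4) and *Apln* at 251.0 (232.2 to 270.8), within the intervals of the *Egfr* group's nuclei with *Xist*. In the 247 such nuclei with Y-linked UMIs only, *Adm* had 0 UMIs (0 to 1.615 CPM), and *Apln* had 13 UMIs, or 5.69 CPM (3.03 to 9.73). Among nuclei with *Xist* only and 0 *Pdgfra* UMIs, *Adm* was at 57.5, 61.6, 64.8 and 51.2 CPM with 0, 1, 2 to 3, and 4 or more *Egfr* UMIs, and *Apln* at 251.0, 312.8, 275.7 and 233.7 CPM. Neither level increased in order with the number of *Egfr* UMIs, and the median depths of these 4 classes were between 10172 and 12822 UMIs.

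The difference between the receptor groups was smaller among nuclei with *Xist* only and among nuclei with Y-linked UMIs only, but not among nuclei without sex-linked UMIs. Among nuclei with *Xist* only, *Adm* was at 12.3 CPM (8.65 to 16.9) in the 149 nuclei of the *Pdgfra* group, so that the ratio of the *Egfr* group to the *Pdgfra* group fell from 68.6 to 4.69 (3.37 to 6.73). For *Apln* the level was 41.2 CPM (34.2 to 49.1) and the ratio 6.16 (5.15 to 7.44). Of these 149 nuclei, 30.2% were among the 8% highest Scrublet scores, beside 0.567% of the 882 of the *Egfr* group, and their median depth was 18681 UMIs. Among nuclei with Y-linked UMIs only, *Adm* had 1 and 5 UMIs, a ratio of 2.91 (0.0615 to 26), so that no difference was detectable at this depth. For *Apln* the ratio was 5.76 (3.30 to 9.72), from 21 and 53 UMIs. Among nuclei without sex-linked UMIs, 66 of the *Egfr* group and 3394 of the *Pdgfra* group, the ratios were 107 for *Adm* and 48.9 for *Apln*. These were not smaller than in the whole groups. A missing *Xist* UMI does not show that *Xist* was off, and the part of sex-linked transcripts in these levels was not tested.

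**Figure D2:**
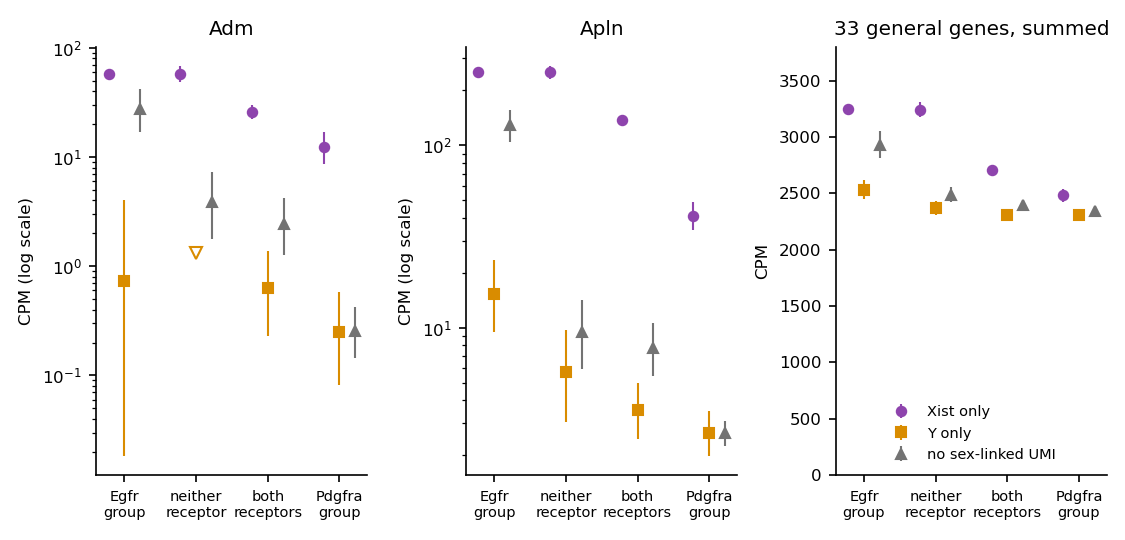
Levels in CPM of *Adm*, *Apln* and the sum of the 33 general genes in 4 receptor classes (x axis), each split by sex-linked UMIs (purple circles, *Xist* only; orange squares, Y-linked only; grey triangles, neither), with 95% exact Poisson intervals. Nuclei with both *Xist* and Y-linked UMIs are not shown. Log axes are used for the peptides, and the open triangle is the level that 3 UMIs would give (1.31 CPM), where 0 were counted. *Adm* and *Apln* were at 57.5 and 251.0 CPM in *Xist* nuclei without either receptor, close to the *Xist* nuclei of the *Egfr* group.

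Summed over the whole groups, the 33 general genes differed less than the peptides. Together they had 3157 CPM in the *Egfr* group and 2341 in the *Pdgfra* group, a ratio of 1.35 (1.34 to 1.36). Per thinned nucleus their summed UMIs had a median of 16 (quartiles 13 and 19) and 12 (9 and 14). Of the 33, 26 had a mean of at least 5 CPM, and their median log2 ratio was 0.47, beside 0.17 for all 10858 genes. Of these 26, 4 were at least 2-fold higher in the *Egfr* group (15.4%, beside 9.34% of all genes), 1 was at least 2-fold lower (3.85%, beside 7.52%), and 21 lay within 2-fold. At 1.5-fold, 11 were higher (42.3%, beside 21.2%) and 3 lower (11.5%, beside 13.2%). Over all 33, with the 7 below the minimum, 8 were 2-fold higher and 2 lower, for which no share of all genes without the minimum is given. *Slc2a3*, *Epas1* and *Bnip3* passed the minimum only through their level in the *Egfr* group. The median log2 ratio of the 26 was 0.39 among nuclei with *Xist* only and 0.24 among nuclei with Y-linked UMIs only, where 15 of the 26 kept the direction of the whole groups. Single general genes differed as much as the peptides among nuclei with *Xist* only, where the ratio was 0.104 for *Pfkp* (0.0658 to 0.160) and 4.94 for *Ndrg1* (1.85 to 18.6, from 74 and 4 UMIs), beside 4.69 for *Adm* and 6.16 for *Apln*.

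**Figure D3:**
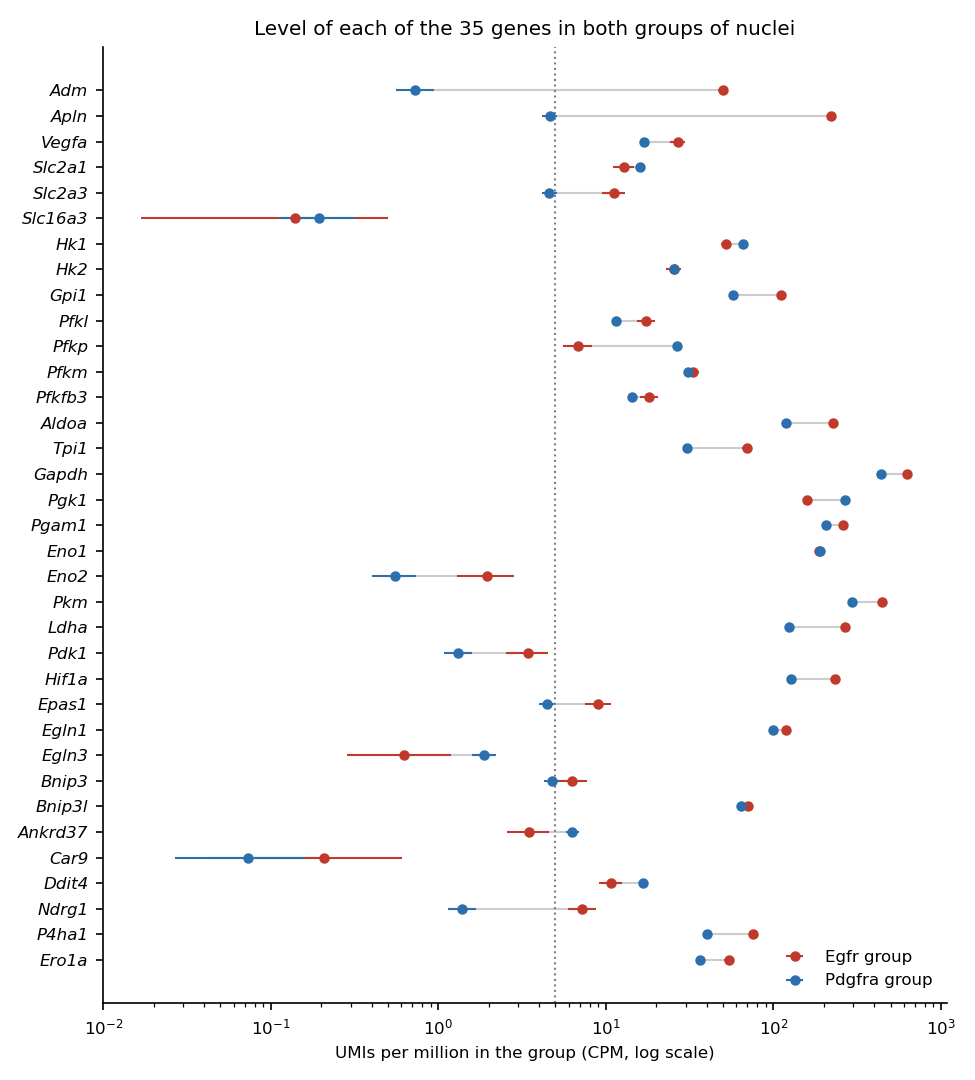
Level of each gene in CPM (log axis) in the *Egfr* group (red) and the *Pdgfra* group (blue), with 95% exact Poisson intervals from summed UMIs, which are narrower than the point for abundant genes. The dotted line marks 5 CPM. *Adm* and *Apln* are the widest pairs, and *Pfkp* and *Pgk1* have the blue point to the right.

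Glucose enters through *Slc2a1* (GLUT1) and *Slc2a3* (GLUT3), the high-affinity transporter best known from neurons, and lactate leaves through *Slc16a3* (MCT4). *Slc2a3* was at 11.1 CPM (9.48 to 13.0) in the *Egfr* group and 4.59 (4.14 to 5.08) in the *Pdgfra* group, a ratio of 2.43 (2.00 to 2.93). *Slc2a1* went the other way, with 12.8 CPM (11 to 14.8) and 15.9 (15.1 to 16.8). *Slc16a3* had 2 and 16 UMIs, and no difference was detectable at this depth.

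The 15 glycolytic genes, with the regulator *Pfkfb3*, summed to 2243 CPM in the *Egfr* group and 1776 in the *Pdgfra* group, a ratio of 1.26 (1.25 to 1.28). They did not move as a block. Of the hexokinases, which trap glucose in the cell, *Hk1* had a log2 ratio of -0.33 (-0.45 to -0.22) and *Hk2* of 0.00 (-0.16 to 0.16). By class, the ratio of *Hk2* was 1.35 (1.02 to 1.82) with *Xist* only and 0.539 (0.305 to 0.885) with Y-linked UMIs only, the latter from 16 and 432 UMIs. That of *Hk1* was 0.829 (0.699 to 0.988) and 1.19 (0.965 to 1.46). *Gpi1*, which isomerizes glucose 6-phosphate, was at 111.0 and 57.5 CPM, with a log2 ratio of 0.95 (0.87 to 1.03). *Aldoa*, the aldolase, was at 225.7 and 119.5 CPM, with 0.92 (0.86 to 0.98). *Pfkfb3*, which makes the activator of phosphofructokinase, had 0.34 (0.14 to 0.54).

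The phosphofructokinases, which set the committed step of glycolysis, went apart. *Pfkp*, the platelet type, was at 6.82 CPM (5.54 to 8.31) in the *Egfr* group and 26.5 (25.4 to 27.6) in the *Pdgfra* group, 3.88 times higher in the latter. *Pfkl*, the liver type, was at 17.5 and 11.6 CPM, a log2 ratio of 0.60 (0.39 to 0.80), and *Pfkm*, the muscle type, at 33 and 30.9 CPM, with 0.10 (-0.05 to 0.24). The low level of *Pfkp* was found in the nuclei with *Xist*: in the *Egfr* group it was at 2.66 CPM in nuclei with *Xist* only and at 35.7 in nuclei with Y-linked UMIs only, a ratio of 0.0743 (0.0456 to 0.119). In nuclei with neither receptor the 2 levels were 4.92 and 35.5 CPM. In the *Pdgfra* group they were 25.6 and 26.2 CPM, a ratio of 0.975 (0.757 to 1.24). Among nuclei with Y-linked UMIs only, the *Egfr* group was not lower in *Pfkp* than the *Pdgfra* group, with a ratio of 1.36 (0.995 to 1.83). Among nuclei with no more than 5% mitochondrial UMIs, *Pfkp* was at 18.3 and 26.4 CPM, a ratio of 0.691 (0.489 to 0.952), beside 0.258 in the whole groups.

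Of the later enzymes, *Tpi1*, triosephosphate isomerase, was at 69.5 CPM (65.3 to 74.0) in the *Egfr* group and 30.3 (29.1 to 31.5) in the *Pdgfra* group, a ratio of 2.29 (2.13 to 2.47). *Gapdh* was at 630.4 and 435.9 CPM, with a log2 ratio of 0.53 (0.50 to 0.57). *Pgk1*, phosphoglycerate kinase, was lower in the *Egfr* group, at 158.6 CPM (152.1 to 165.2) and 267.7 (264.1 to 271.2), a log2 ratio of -0.76 (-0.82 to -0.69). Like *Apln* it lies on the X chromosome, whose genes had a median of -0.02. *Pgk1* was lower in the *Egfr* group among nuclei with *Xist* only (155.5 and 252.3 CPM) and among nuclei with Y-linked UMIs only (166.3 and 236.9), which set it apart from *Pfkp*. *Pgam1*, phosphoglycerate mutase, had a log2 ratio of 0.33 (0.28 to 0.38), close to the median of 0.31 of its chromosome 19. *Eno1* had -0.01 (-0.07 to 0.05), and the neuronal enolase *Eno2* was counted 28 and 45 times, at 1.95 and 0.548 CPM. *Pkm*, pyruvate kinase, was at 446.5 and 295.1 CPM, with 0.60 (0.56 to 0.64), but at 245.1 and 270.9 CPM among nuclei with Y-linked UMIs only, a ratio of 0.905 (0.808 to 1.01).

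Pyruvate is turned to lactate by lactate dehydrogenase A, encoded by *Ldha*, and kept from the mitochondria by *Pdk1*, which inhibits pyruvate dehydrogenase. *Ldha* was at 267.7 CPM (259.3 to 276.3) in the *Egfr* group and 123.2 (120.8 to 125.6) in the *Pdgfra* group, a ratio of 2.17 (2.09 to 2.26). Chromosome 7, which also holds *Adm*, *Gpi1*, *Aldoa* and *Bnip3*, had a median log2 ratio of 0.34, so that *Ldha* lay 0.78 above it. Among nuclei with Y-linked UMIs only, *Ldha* was at 138.6 and 119.0 CPM, a ratio of 1.17 (0.999 to 1.35). *Pdk1* was counted 49 and 108 times, at 3.41 and 1.32 CPM. *Gapdh*, *Aldoa*, *Pgk1*, *Pgam1*, *Eno1* and *Ldha* have processed copies elsewhere in the genome, and reads that match more than 1 copy could have been lost or misplaced.

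Over the whole groups, both HIF alpha subunits were higher in the *Egfr* group. *Hif1a* was at 234.3 CPM (226.5 to 242.4) and 127.6 (125.2 to 130.1), a log2 ratio of 0.88 (0.82 to 0.93). The genes of its chromosome 12 had a median of 0.63, so that *Hif1a* lay 0.25 above its neighbors. The ratio of *Hif1a* was 1.86 (1.67 to 2.08) among nuclei with *Xist* only and 1.21 (1.06 to 1.38) among nuclei with Y-linked UMIs only. *Epas1* was at 8.98 CPM (7.5 to 10.7) and 4.43 (3.99 to 4.91), a ratio of 2.03 (1.65 to 2.48). In the same classes the ratio of *Epas1* was 1.26 (0.791 to 2.10), from 104 and 22 UMIs, and 2.10 (1.08 to 3.78), from 13 and 90 UMIs. Of the prolyl hydroxylases, *Egln1* had a log2 ratio of 0.26 (0.18 to 0.33), and *Egln3*, itself a HIF target, was counted 9 and 154 times, at 0.627 and 1.88 CPM. Transcript levels of *Hif1a* do not measure the protein, whose amount is set mainly by its degradation.

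**Figure D4:**
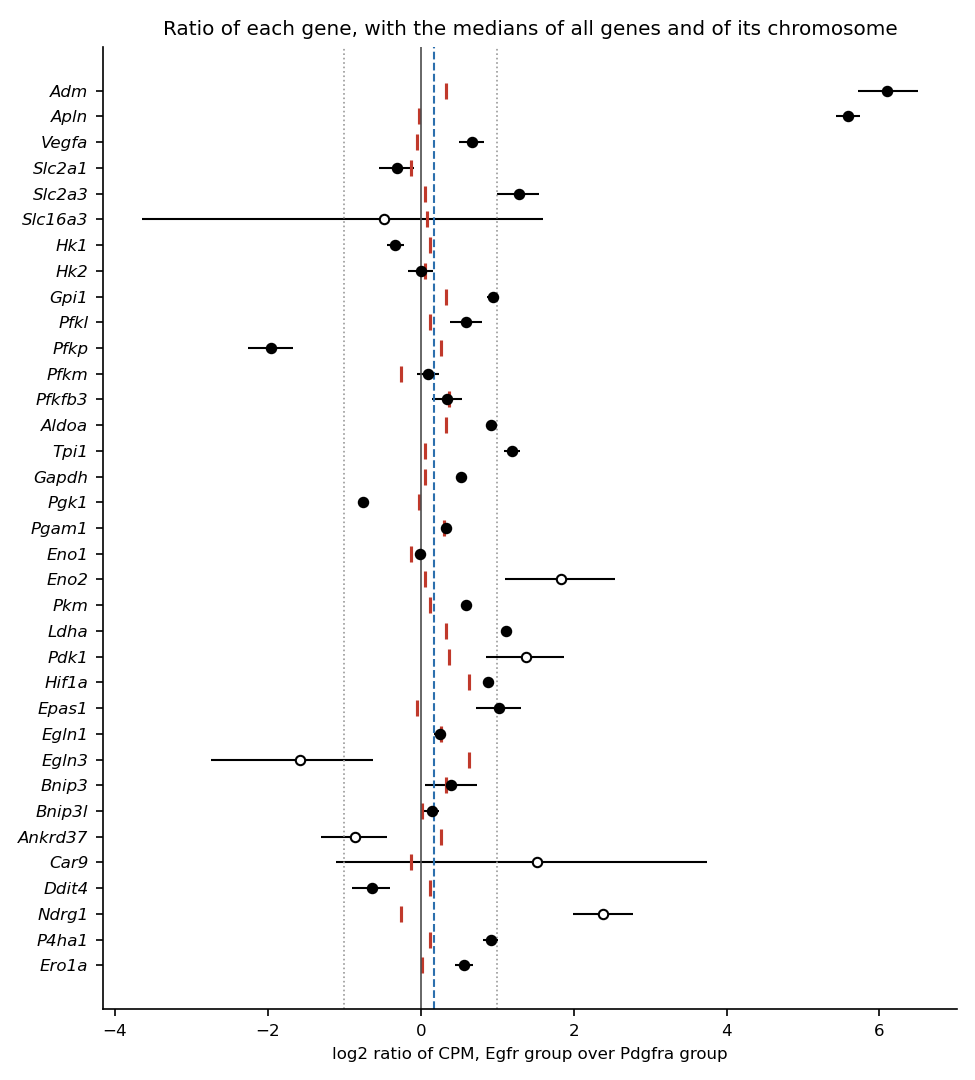
Log2 ratio of CPM of the *Egfr* group over the *Pdgfra* group for each gene with 95% exact intervals. Filled points had a mean of at least 5 CPM, open points less, the blue dashed line is the median of all genes tested (0.17), the dotted lines mark 2-fold, and the red bar is the median of the gene's chromosome. *Adm* and *Apln* are above 5 while every general gene above the minimum lies between -1.96 and 1.28.

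*Vegfa*, the main angiogenic growth factor under HIF, was at 26.8 CPM (24.2 to 29.6) in the *Egfr* group and 16.9 (16.0 to 17.8) in the *Pdgfra* group, a ratio of 1.59 (1.42 to 1.78). In nuclei with Y-linked UMIs only it was at 14.6 and 16.1 CPM. *P4ha1*, a collagen prolyl hydroxylase, was at 75.8 and 40.2 CPM, with a log2 ratio of 0.92 (0.82 to 1.02), and *Ero1a*, an oxidase of the endoplasmic reticulum, had 0.57 (0.45 to 0.68). Among nuclei with Y-linked UMIs only, *P4ha1* was at 31.4 and 37.3 CPM, a ratio of 0.841 (0.603 to 1.14), and *Ero1a* at 29.2 and 29.5. With *Xist* only, *P4ha1* had a ratio of 1.83 (1.53 to 2.21) and *Ero1a* of 1.15 (0.962 to 1.39). *Ndrg1*, a stress-responsive gene that HIF can induce, was at 7.24 CPM (5.92 to 8.77) and 1.39 (1.15 to 1.67), which was the highest ratio after the peptides, 5.22 (3.96 to 6.87), although its mean was under 5 CPM. In nuclei with neither receptor, *Ndrg1* was at 12.1 CPM with *Xist* only and had 0 UMIs with Y-linked UMIs only.

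The values of other classic HIF targets were mixed. *Bnip3* and *Bnip3l*, which direct mitochondria to autophagy, had log2 ratios of 0.40 (0.05 to 0.73) and 0.15 (0.05 to 0.24), near the median of all genes. *Car9*, a carbonic anhydrase widely used as a marker of hypoxia, was counted only 3 times in the *Egfr* group and 6 times in the *Pdgfra* group, a ratio of 2.86 (0.463 to 13.4), so that no difference was detectable at this depth. *Ankrd37* was at 3.48 and 6.31 CPM. *Ddit4*, an inhibitor of mTORC1 that also responds to other stress, was at 10.7 CPM (9.09 to 12.6) and 16.7 (15.9 to 17.7), a log2 ratio of -0.64 (-0.89 to -0.40). Its ratio was 0.609 (0.427 to 0.881) with *Xist* only and 1.36 (0.883 to 2.03) with Y-linked UMIs only.

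**Figure D5:**
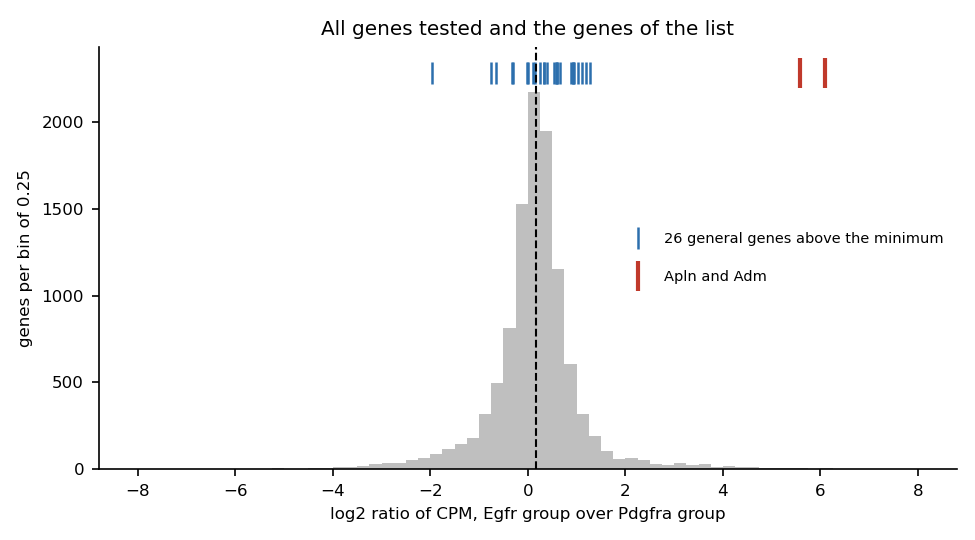
Number of genes per bin of 0.25 in the log2 ratio of CPM, *Egfr* group over *Pdgfra* group, for the 10858 genes with a mean of at least 5 CPM, with the median of 0.17 dashed. Ticks above mark the 26 general genes over that minimum (blue), which lie within the bulk apart from *Pfkp*, and *Apln* and *Adm* (red) at 5.58 and 6.10.

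The general genes were also set against the peptides within the *Egfr* group. Summed, they were at 3141 CPM (3089 to 3194) in the 878 thinned nuclei with 0 *Adm* UMIs and 3286 (3182 to 3393) in the 228 with 1 to 2. By *Apln* they were at 3005 CPM (2939 to 3072) in the 532 nuclei with 0 UMIs, 3335 (3257 to 3415) in the 412 with 1 to 2, and 3284 (3163 to 3408) in the 170 with 3 or more. By class of nuclei, the sum was 3253 CPM in the *Egfr* group with *Xist* only and 2533 with Y-linked UMIs only, a ratio of 1.28 (1.24 to 1.33), and 3245 and 2368 CPM in nuclei with neither receptor. In the *Pdgfra* group these sums were 2484 and 2313 CPM.

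Further lists gave the background of the pathway. Of 40 other HIF targets, 29 had a mean of at least 5 CPM, and 6 of them (20.7%, beside 9.34% of all genes) were at least 2-fold higher in the *Egfr* group: *Plin2*, *Bhlhe40*, *Tfrc*, *Hmox1*, *Gbe1* and *Plod1*. None was 2-fold lower (0%, beside 7.52%), and the median log2 ratio of the 29 was 0.14, beside 0.17 for all genes. *Plin2*, which coats lipid droplets, was at 18.5 and 3.70 CPM, and passed the minimum only through its level in the *Egfr* group. Of 12 partners and regulators of HIF above the minimum, such as *Arnt* and *Vhl*, 0 passed 2-fold in either direction, beside the same 9.34% and 7.52%, with a median of 0.03. Of 14 genes of the integrated stress response, a pathway that also regulates some listed genes, 3 were 2-fold higher (21.4%; *Slc7a11*, *Trib3* and *Nupr1*) and 1 lower (7.14%; *Sesn2*), with a median of 0.29.

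Receptor genes for the peptides were looked up in both groups. *Calcrl*, which with *Ramp2* forms the adrenomedullin receptor, was at 111.7 CPM (106.3 to 117.3) in the *Egfr* group and 76.4 (74.5 to 78.3) in the *Pdgfra* group, and *Ramp2* at 17.7 (15.6 to 20) and 23.3 (22.3 to 24.4). *Aplnr*, the receptor of apelin, had 1 UMI in all 8917 nuclei and 0 in both groups, which in the *Pdgfra* group has an upper limit of 0.0449 CPM. *Nrp1*, a coreceptor for VEGF, was at 48.7 and 10.1 CPM, a ratio of 4.82 (4.35 to 5.33).

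Other cell types and the quality of the nuclei were measured beside these values. The 8 endothelial markers summed to 10.4 and 6.49 CPM, and 6 of the 8 were under 1 CPM in the *Egfr* group. Of these markers *Cldn5* had 0 UMIs in both groups, *Cdh5* had 2 and 1, and *Tie1* had 0 and 1, while *Pecam1* was lower in the *Egfr* group, at 2.92 and 5.75 CPM. The other direction was seen for *Tek*, with 91 and 49 UMIs (6.33 and 0.597 CPM, a ratio of 10.6, 7.42 to 15.4), and for *Emcn*, with 13 and 5 UMIs (a ratio of 14.9, 4.97 to 53.3). The VEGF receptor genes *Kdr* and *Flt1*, both known from endothelium, had ratios of 2.89 (1.94 to 4.27) and 2.39 (1.58 to 3.57) at levels under 3 CPM. The part of endothelial transcripts in the level of *Apln* was not tested. Of 3 neuron markers above the minimum, 1 was at least 2-fold higher and 1 lower (33.3% each, beside 9.34% and 7.52% of all genes). *Rbfox3* was at 17.75 and 0.377 CPM, a ratio of 47.0 (32.3 to 70.7), and passed the minimum only through the *Egfr* group. *Syt1* was at 38.3 and 113.9 CPM, and *Snap25* at 5.43 and 7.30. All oligodendrocyte, astrocyte and pericyte markers above the minimum (1, 2 and 1) were at least 2-fold lower. The pericyte marker was *Cspg4*, which is also on the OPC list. Of the astrocyte markers below the minimum, *Aldh1l1* was higher, with 15 and 14 UMIs (a ratio of 6.13, 2.76 to 13.7). *Gja1* had 4 and 1 UMIs (a ratio of 22.9, 2.26 to 1126), *Gfap* 13 and 82 (0.907, 0.463 to 1.64) and *Aqp4* 0 and 1. Of 6 OPC markers above the minimum, 4 were at least 2-fold lower in the *Egfr* group (*Sox10*, *Lhfpl3*, *Cspg4* and *Ptprz1*). This was 66.7%, beside 7.52% of all genes, and 0 were 2-fold higher, beside 9.34%. *Olig1* and *Olig2* were lower by less, with ratios of 0.811 (0.792 to 0.831) and 0.699 (0.673 to 0.725). Mitochondrial genes took 6.35% and 6.41% of the UMIs, ribosomal protein genes 7.80% and 8.07%, and after thinning 89.7% and 86.0% of the nuclei had a UMI of the cell cycle genes *Top2a* or *Mki67*. In nuclei with 0 UMIs of both, 63 and 302, *Adm* was at 31.1 and 0.286 CPM and *Apln* at 243.2 and 2.29. Within 10000 to 20000 UMIs the ratio was 173 for *Adm* and 56.0 for *Apln*, and over 20000 UMIs 36.9 and 42.0.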

How the data were processed

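Nuclei of cultured BB-p53n OPCs were profiled in 1 library with the 10x 3′ chemistry, and the tumor samples of the series were not analysed here. The authors aligned reads and called barcodes with Cell Ranger 8.0.1 on mm39, and the deposited matrix holds whole UMI counts that were not normalized. The sources used here name no length scaling and no authors' comparison column was used. Gene positions came from GENCODE vM39 on GRCm39, the same build as mm39, and promoter letters from RefSeq on GRCm38.p6, with no coordinates converted.

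Nuclei were kept at 2000 to 8000 detected genes and grouped by *Egfr* and *Pdgfra* UMIs. UMIs were summed per group and divided by all its UMIs (14366050 and 82149081) to give CPM, with exact Poisson intervals for levels, exact conditional binomial intervals for ratios and exact binomial (Clopper-Pearson) intervals for shares, all at 95% (Python 3.11.15, scipy 1.17.1). At this depth 3 UMIs are 0.209 and 0.0365 CPM, and the exact upper limit of a count of 0 is 0.257 and 0.0449 CPM. Genes with a mean of at least 5 CPM over both groups entered counts and medians, and "past" a fold means 2-fold or 1.5-fold. Shares were taken after thinning nuclei to 5000 UMIs with a fixed seed, which left out 11 and 31 shallower nuclei. The symbol *Aldoa* had 2 identifiers, and the one with more UMIs was used. With 1 sample there was no test. The script was tested on simulated data.

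No nuclei were removed as doublets. Scrublet (scanpy 1.11.5) called 1566 of the 8917 nuclei, 17.6%, and removing them was an alternative chosen after seeing the data. Other alternatives changed the cutoffs on detected genes, mitochondrial UMIs, receptor UMIs, depth, sex-linked UMIs, cell cycle genes, the minimum level and the fold. The 35 genes, the lists and the alternatives were chosen with earlier results of these data known. All 35 genes were given values. For the lists of other HIF targets, HIF partners and the integrated stress response, the counts past 2-fold and the medians are given, and mainly genes past 2-fold are named. For the peptide receptors and the cell type markers, values of single genes or counts past 2-fold are given.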

Additional observations from a re-analysis of the deposited data

How the results depend on the processing

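The direction of both peptides, and of all 5 general genes past 2-fold, was kept in all 14 alternatives, and the median log2 ratio of the general genes stayed between 0.37 and 0.51. Nuclei with Y-linked UMIs only and nuclei without sex-linked UMIs were not among these alternatives. Their medians were 0.24 and 0.23, and 15 and 22 of the 26 general genes above the minimum kept their direction. With Y-linked UMIs only, *Pfkp* had a ratio of 1.36 (0.995 to 1.83). The ratio of *Adm*, 68.6 in the report, and of *Apln*, 47.9, were 4.69 and 6.16 with nuclei that had *Xist* only, 196 and 83.9 without *Xist* nuclei in the *Pdgfra* group, 199 and 80.3 without the 8% highest Scrublet scores, 249 and 80.1 without the nuclei that Scrublet called, 173 and 56.0 at 10000 to 20000 UMIs, and 109 and 106 in nuclei with 0 *Top2a* and *Mki67* UMIs. *Adm* was 45.6 at no more than 5% mitochondrial UMIs. *Apln* was 40.4 from 1 receptor UMI and 30.7 with thinning before grouping. The count of general genes past 2-fold, 5, was 3 at no more than 5% mitochondrial UMIs (*Vegfa*, *Slc2a3* and *Ero1a*, with only *Slc2a3* among the 5, and *Pfkp* at a ratio of 0.691), 3 with *Xist* only, 10 in nuclei with 0 *Top2a* and *Mki67* UMIs, 10 with no minimum level, and 14 at 1.5-fold. At 1.5-fold, 21.2% of all genes were higher and 13.2% lower. For the other alternatives no share of all genes is given, so that their counts do not show a change particular to the general genes. *Pdk1* had a log2 ratio of -0.99 in nuclei with 0 *Top2a* and *Mki67* UMIs, from 1 and 12 UMIs, a ratio of 0.503 (0.0118 to 3.40), which does not show a reversal. In all, 5 general genes changed sign in some alternative, and the cause was not tested. No paired analysis was possible because only 1 library was analysed and both groups are nuclei of it. Depth limits the *Pdgfra* group's *Adm*, with 60 UMIs, and that of the *Egfr* group's nuclei with Y-linked UMIs only, with 1. Intervals cover counting error, not differences between cultures.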
